A study of Mus musculus with 2 samples.

Results

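The 33 genes described here encode the enzymes of glycolysis and of the pentose phosphate pathway in mouse, with the transporters that bring in glucose and release lactate. They were chosen by symbol and matched to Ensembl gene entries without the version number, and all 33 were found among 43346 such entries in both libraries. Polyadenylated RNA was sequenced from single ends in CH12.LX, an immortalized B-cell lymphoma line of strain B10.H-2aH-4bp/Wts labelled as female, in 2 libraries from separate biosamples. The line is a tumour-derived culture, its age and developmental stage are labelled unknown, and no treatment, genotype or second line is named. Both libraries therefore form 1 group, and levels are given as values and mean ± SD over n = 2, with no test between conditions. Where the text sets the libraries side by side, replicate 1 is compared with replicate 2, and the difference holds no condition.

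Glycolysis splits glucose into pyruvate and yields ATP and NADH, and lactate dehydrogenase turns pyruvate into lactate while returning NAD+. The pentose phosphate pathway branches off at glucose 6-phosphate; its oxidative arm makes NADPH and its non-oxidative arm makes ribose phosphate for nucleotides. Many steps have several isozymes, proteins from different genes (or from 1 gene by splicing) that run the same reaction and are known from different tissues, and dividing lymphoid cells are known for high rates of glycolysis.

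The sequences that follow carry 3 of the comparisons. The first set is the pair of mutually exclusive exons of Pkm, the pyruvate kinase of most tissues, which separate its M1 form from its M2 form. Each is exon 9 of 11 in its transcript and 167 bases long, on the plus strand of mm10, the M1 exon at chr9:59675029-59675195 and the M2 exon at chr9:59675568-59675734. They match at 103 positions and differ at 64, which the capitals mark.
M1 exon: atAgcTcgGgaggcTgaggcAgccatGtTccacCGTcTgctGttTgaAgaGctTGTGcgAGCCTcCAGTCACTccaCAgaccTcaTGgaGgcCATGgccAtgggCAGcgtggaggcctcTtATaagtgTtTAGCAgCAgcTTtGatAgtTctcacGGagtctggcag
M2 exon: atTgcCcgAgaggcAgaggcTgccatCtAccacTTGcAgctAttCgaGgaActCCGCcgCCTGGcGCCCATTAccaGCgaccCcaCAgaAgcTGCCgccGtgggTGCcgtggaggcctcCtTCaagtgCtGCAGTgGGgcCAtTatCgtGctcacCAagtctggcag

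The second set shows how little separates an expressed enzyme gene from its processed pseudogene, a reinserted copy without introns. Over 1302 bases, the enolase gene Eno1 and the pseudogene Gm4735 differ at 5. A window of 41 bases, the read length that the tables imply, is shown around one of them, and the capital marks the substitution T21C, counted from 1 at the left end with the Eno1 base first. The Eno1 window lies at chr4:150246608-150246648 and the Gm4735 window at chr2:80837846-80837886, both on the plus strand of mm10.
Eno1: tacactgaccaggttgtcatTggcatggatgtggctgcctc
Gm4735: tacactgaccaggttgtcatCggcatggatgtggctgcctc

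The third set contrasts the 250 bases before an annotated start of Ldha, which was highly expressed, with those before the start of Ldhb, which was nearly silent. They are from RefSeq on GRCm38.p6, the assembly also called mm10, at chr7:46845554-46845803 on the plus strand and chr6:142507958-142508207 on the minus strand. Capitals mark CACGTG, the E-box bound by MYC among other factors, ACGTG, part of the element bound by HIF1, and GCGTG, the second form of that element, read on either strand. A further annotated start of Ldha, not printed, has 1 GCGTG and no CACGTG or ACGTG in its 250 bases, the same counts as for Ldhb. Whether these motifs bear on expression was not tested.
Ldha: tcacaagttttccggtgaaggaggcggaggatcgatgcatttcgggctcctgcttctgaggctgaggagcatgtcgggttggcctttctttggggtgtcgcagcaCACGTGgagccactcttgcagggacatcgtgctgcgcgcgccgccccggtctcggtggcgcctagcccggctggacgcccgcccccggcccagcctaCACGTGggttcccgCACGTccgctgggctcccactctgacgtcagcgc
Ldhb: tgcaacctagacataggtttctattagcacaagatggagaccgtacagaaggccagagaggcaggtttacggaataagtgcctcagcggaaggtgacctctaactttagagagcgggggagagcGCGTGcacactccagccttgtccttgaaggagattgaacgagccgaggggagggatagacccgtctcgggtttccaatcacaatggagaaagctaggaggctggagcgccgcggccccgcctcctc

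CH12.LX expressed nearly all of the 33 listed genes, and 5 of them, Gapdh, Eno1, Pkm, Ldha and Aldoa, passed 1000 TPM in both libraries. At 1 TPM or more in both libraries, 30 of the 33 genes were detected, whereas 48.0% of 21474 protein-coding genes passed the same level. TPM is a level corrected for transcript length and scaled to a fixed total in each library. The median level of the 30 detected genes was 63.6 TPM, and that of the 10317 detected protein-coding genes was 21.03 TPM. The list was chosen with earlier results of these data known, so these contrasts with all genes describe the list and test nothing. Of 29 other genes of these and adjoining pathways, given below, 14 were detected. The 33 genes held 1.24% of the expected counts in replicate 1 and 1.19% in replicate 2, or 10370 and 10110 TPM. Only Hk3, Pklr and Ldhb were not detected.

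**Figure D1:**
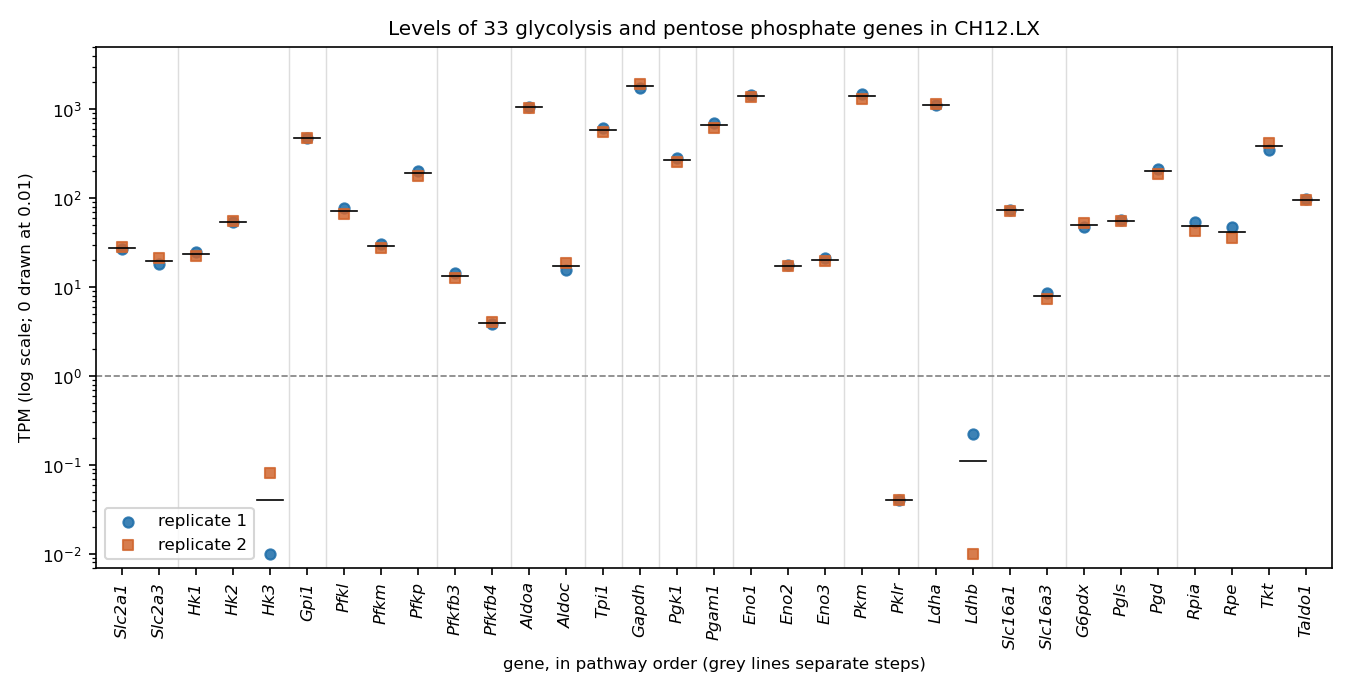
TPM of the 33 genes in each library, on a log scale, in pathway order; points are libraries, short lines are means, and the dashed line is 1 TPM. Hk3, Pklr and Ldhb lie below 1 TPM, and Gapdh, Eno1, Pkm, Ldha and Aldoa lie above 1000 TPM in both libraries.

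Replicate 1 held 22996547 expected counts and replicate 2 held 25715408. All 6 B cell marker genes were detected, summing to 1272 and 1393 TPM in replicates 1 and 2. Most markers of tissues known for other isozymes were below 1 TPM. None of 5 liver, 5 erythroid and 4 testis markers was detected, and these lists summed to at most 0.11, 0.70 and 0.60 TPM. Of 5 muscle, 5 neuron and 6 myeloid markers, 1 of each list passed 1 TPM: Tnnt3 at 12.1 and 9.77 TPM, Tubb3 at 2.02 and 1.31 TPM, and Adgre1 at 1.64 and 1.34 TPM. The muscle markers Myh4 and Mb, the neuron markers Rbfox3 and Stmn2, and the liver marker Alb had 0 counts in both libraries. In a bulk library, more cells with an RNA and more of that RNA in each cell cannot be told apart.

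Glucose enters through the facilitative transporters. Slc2a1, which encodes GLUT1, stood at 26.5 TPM in replicate 1 and 28.5 TPM in replicate 2. Slc2a3, which encodes the high-affinity GLUT3, stood at 18.4 and 21.2 TPM. Both libraries put Slc2a1 above Slc2a3 and their values did not overlap, with Slc2a1 at 58.2% ± 1.17 of their summed TPM (SD, n = 2). The reads were nearly even, at 1113 and 1324 for Slc2a1 and 1122 and 1305 for Slc2a3, so the order by TPM comes with the correction for length and by counts Slc2a1 held 50.1%.

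Hexokinase traps glucose as glucose 6-phosphate. Hk2, the inducible isozyme of muscle, fat and many tumours, led with 53.1 and 55.8 TPM, and the broadly expressed Hk1 had 24.6 and 22.1 TPM. Hk2 thus held 69.9% ± 2.26 of the summed hexokinase TPM (SD, n = 2). Its share was 70.9% by counts and 62.2% over transcripts annotated as protein coding. Hk3, known from myeloid cells, had 0 counts in replicate 1, which allows up to 0.0897 TPM at 3 counts, and 4 counts or 0.08 TPM in replicate 2.

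Glucose-6-phosphate isomerase, Gpi1, has no isozyme and stood at 475 and 470.5 TPM. Phosphofructokinase commits the sugar to glycolysis, and all 3 of its genes were expressed. The platelet-type Pfkp led with 203 and 175 TPM, ahead of the liver-type Pfkl at 76.9 and 66.4 TPM and the muscle-type Pfkm at 30.1 and 27.2 TPM. The shares of TPM differed little between libraries, at 65.3% ± 0.234 for Pfkp, 24.7% ± 0.0550 for Pfkl and 9.91% ± 0.289 for Pfkm (SD, n = 2 each). No pair of the 3 overlapped. The share depended more on the measure: Pfkp held 54.8% by counts and 54.6% over transcripts annotated as protein coding, and it still led.

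Phosphofructokinase is stimulated by fructose 2,6-bisphosphate, which the PFKFB enzymes make and remove. Pfkfb3, whose product mainly makes it, stood at 14.2 and 12.7 TPM, and Pfkfb4 at 3.82 and 4.02 TPM. Pfkfb3 held 77.3% ± 2.05 of their sum (SD, n = 2). This pair covers only part of the family: Pfkfb1, the liver form, reached 11.6 and 9.14 TPM and Pfkfb2, the heart form, 5.35 and 5.21 TPM. With both included the share of Pfkfb3 was 40.7% of TPM, and it still led. By expected counts it stood further ahead, at 1016 and 1078. Pfkfb4 had 206 and 241 counts, Pfkfb1 207 and 197, and Pfkfb2 183 and 200.

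Aldolase, which splits the sugar, was almost wholly Aldoa. Aldoa had 1058 and 1039.7 TPM, and Aldoc, the isozyme best known from brain, had 15.7 and 18.5 TPM. Aldoa held 98.4% ± 0.203 of their sum (SD, n = 2). Triosephosphate isomerase, Tpi1, which interconverts the products, stood at 622 and 556 TPM.

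The payoff steps follow, where ATP and NADH are made. Gapdh, which forms 1,3-bisphosphoglycerate and NADH, had 1742 and 1935 TPM, the highest of the 33 in both libraries, at place 56 and 42 among protein-coding genes. This level is mostly assigned to short transcripts not typed as protein coding, as given below. Pgk1, the first ATP-producing enzyme, had 285 and 254 TPM, and a pseudogene held a like amount. Pgam1, the phosphoglycerate mutase of most tissues, had 696 and 618 TPM.

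Enolase makes phosphoenolpyruvate and was mostly Eno1, with 1456 and 1368 TPM. The neuronal Eno2 had 17.7 and 17.1 TPM and the muscle Eno3 had 21.3 and 19.4 TPM. Eno1 held 97.4% of the summed TPM in both libraries. Eno2 and Eno3 were detected while the neuron and muscle lists stood mostly at or near 0.

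Pyruvate kinase, the last ATP-producing enzyme, was Pkm at 1482 and 1307 TPM, with 58086 and 56957 expected counts. Pklr, the gene of the liver and red-cell forms, had 2 counts in each library, or 0.04 TPM. Eno1 and Pkm overlapped between libraries, so their order is not settled. In the order of the 33 genes by mean level, 12 of 32 neighbouring pairs overlapped between libraries and 20 did not.

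Ldha, the lactate dehydrogenase subunit of anaerobic tissues, had 1102 and 1137 TPM, and Ldhb, the subunit best known from heart, was nearly absent. Ldhb had 4 counts or 0.22 TPM in replicate 1 and 0 counts in replicate 2, which allows up to 0.181 TPM at 3 counts. Ldha thus held 99.98% of the pair in replicate 1 and 100% in replicate 2. The near copy of Ldhb, Gm5514, had 0 counts in replicate 1 and 1 count in replicate 2.

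Lactate leaves through proton-linked carriers. Slc16a1, which encodes MCT1, stood at 74.0 and 71.7 TPM, and Slc16a3, which encodes MCT4, at 8.59 and 7.31 TPM. Slc16a1 held 90.2% ± 0.815 of their sum (SD, n = 2). Their chaperone Bsg, basigin, had 278 and 265 TPM.

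**Figure D2:**
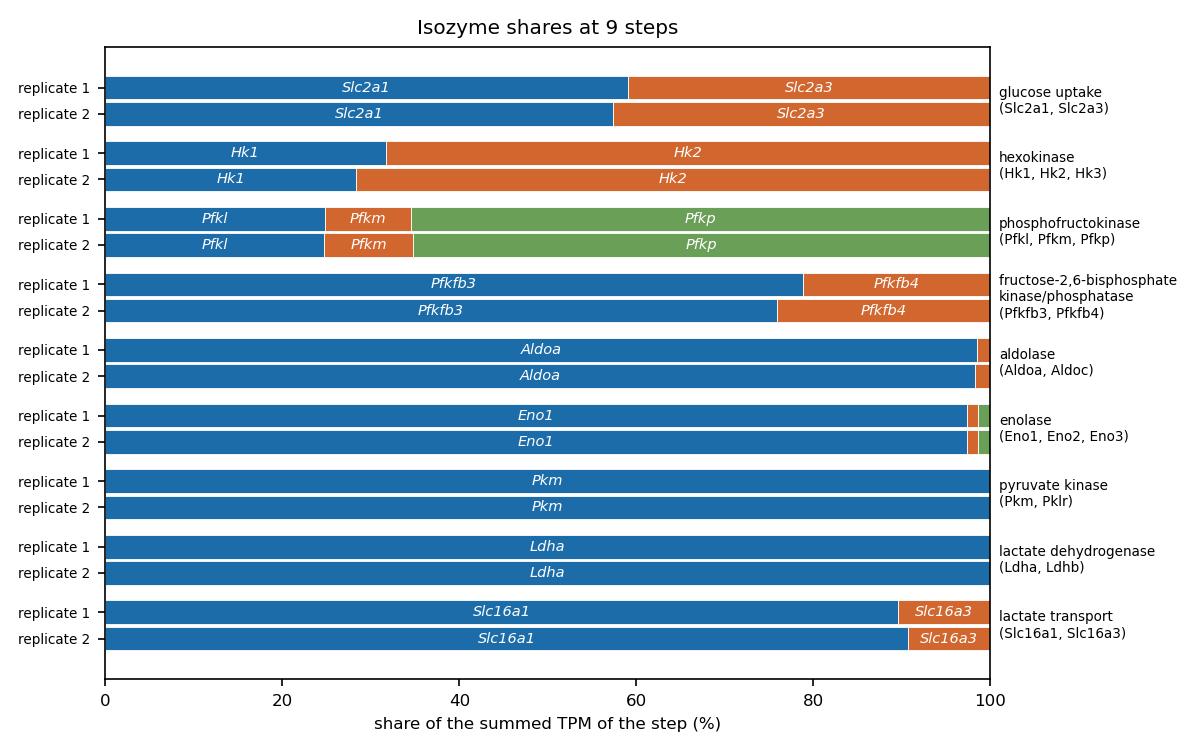
Share of each isozyme in the summed TPM of its step, 1 bar per library, at the 9 steps with more than 1 listed gene. At all 9 the same gene leads in both libraries, from 58.2% for Slc2a1 to nearly the whole for Pkm and Ldha.

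At all 9 steps with several listed genes, the leading gene lay above every other gene of its step in both libraries. With 2 libraries no permutation test can reach 0.05, so this stands as a description. Counts in place of TPM kept the leader in both libraries at 8 of the 9 steps, and Slc2a1 was the exception.

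The oxidative arm of the pentose phosphate pathway was expressed at moderate levels with 6-phosphogluconate dehydrogenase highest. G6pdx, the X-linked glucose-6-phosphate dehydrogenase that sets the rate of the arm, had 47.9 and 52.0 TPM. Pgls, the lactonase, had 56.0 and 55.0 TPM. Pgd, which yields NADPH and ribulose 5-phosphate, had 214 and 185 TPM. No values of G6pdx and Pgls overlapped, and Pgd stood well above both.

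In the non-oxidative arm, Tkt led. Tkt, transketolase, had 348 and 412 TPM, and Taldo1, transaldolase, had 96.5 and 95.3 TPM. Rpia, ribose 5-phosphate isomerase, had 53.5 and 42.3 TPM, and Rpe, the ribulose-phosphate epimerase, had 47.8 and 35.2 TPM. Rpe and Rpia spread most of all detected genes, with an SD of 21.5% and 16.6% of the mean, and their values overlapped.

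Of 29 other genes of these and adjoining pathways, 14 were detected. Bsg, given above, was the highest. The glucose-6-phosphatase G6pc3 of the endoplasmic reticulum had 50.8 and 53.2 TPM. H6pd, the hexose-6-phosphate dehydrogenase of the same compartment, had 28.0 and 28.4 TPM. The phosphoglucomutases Pgm1 and Pgm2 had 38.6 and 39.7 TPM, and 17.1 and 15.6 TPM. Tigar, a fructose bisphosphatase known to favour the pentose phosphate pathway, had 14.3 and 15.3 TPM, and the transporter Slc2a6 had 13.3 and 16.1 TPM. Bpgm, which makes 2,3-bisphosphoglycerate, had 8.84 and 7.93 TPM.
Others were lower still. Pgam2, the muscle mutase, had 2.82 and 1.85 TPM; Gapdhs, the sperm form of Gapdh, 2.25 and 1.27 TPM; and the insulin-regulated transporter Slc2a4 1.86 and 1.68 TPM. The other 15 did not pass 1 TPM in both libraries, and 6 of them, among them Pgk2, Slc2a2 and G6pc, had 0 counts in both. The gluconeogenic genes Fbp1, Fbp2 and Pck1 had at most 0.10 TPM.

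The Pkm transcripts were read for the exon choice that the printed pair shows. The M2 form, Pkm-201, held 91.6% of Pkm TPM in replicate 1 and 92.1% in replicate 2, a mean of 91.9% ± 0.384 (SD, n = 2). Pkm-201 stood at 1357 and 1204 TPM. The M1 form, Pkm-202, held the other 8.42% and 7.88%, at 125 and 103 TPM. The posterior SD of the deposited count was 0.721% and 0.450% of the count for Pkm-201 and 7.80% and 5.22% for Pkm-202. These are the only 2 Pkm transcripts in the tables, so the shares cannot hold any further form.
Both transcripts are 2432 bases long as quantified, and the share rests on the part that differs. In the sequences of the later GENCODE M21 annotation, each exon is touched by 207 windows of 41 bases, of which 195 tell its form from the other. These are 8.15% of the windows of Pkm-201 and 9.75% of those of Pkm-202, so Pkm-202 is shorter in M21. Of the M2 windows, 7 also occur in Gm29739, another gene of the tables, and of the M1 windows 0 occur in another gene of the tables. Counting also the genes of the later annotation that the tables lack, 158 of the M2 windows and 129 of the M1 windows occur elsewhere. Gm49759 holds 129 windows of each exon and has no entry in the tables, so no deposited counts were assigned to it. Where reads from such windows went was not tested. As background, PTB and the hnRNP A proteins are known to repress the M1 exon and SRSF3 to favour the M2 exon in cultured cells. Ptbp1 stood at 372 and 364 TPM, Hnrnpa1 at 1374 and 1297 TPM, Hnrnpa2b1 at 1194 and 932 TPM and Srsf3 at 306 and 248 TPM. Their part in the exon share was not tested.

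Most detected genes had most of their TPM on coding transcripts, with Gapdh the plainest exception. Of the 30 detected genes, 22 held on average at least 90% of their TPM on transcripts annotated as protein coding, 2 held 75% to 90%, and 6 held less than 75%. In Gapdh, Gapdh-208, a processed transcript of 483 bases, held 63.8% and 60.8% of the TPM in replicates 1 and 2. Gapdh-206, a retained-intron transcript of 565 bases, held 21.9% and 17.0%. The full-length coding transcript Gapdh-201 of 1272 bases held 4.84% and 8.17%, at a posterior SD of 60.5% and 40.8% of its count. Counting coding transcripts alone, Gapdh had 234 and 405 TPM and was in 8th place among the 33 genes, whereas over all transcripts it was in 1st place.
Short transcripts gave Gapdh an effective length of 547 bases in replicate 1 and 537 bases in replicate 2. The counts of 15606 and 18913 were below those of Pkm, which had 58086 and 56957. Coding transcripts held 3635 and 5603 of the Gapdh counts. Of the 41-base windows of Gapdh-201, 8.77% occur in no other gene, and 68.7% occur in 20 or more other genes. The share in no other gene was 11.1% for Gapdh-208 and 29.9% for Gapdh-206. Windows that tell the Gapdh transcripts from each other were not counted. Whether the short transcripts exist at these levels was not tested.

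**Figure D3:**
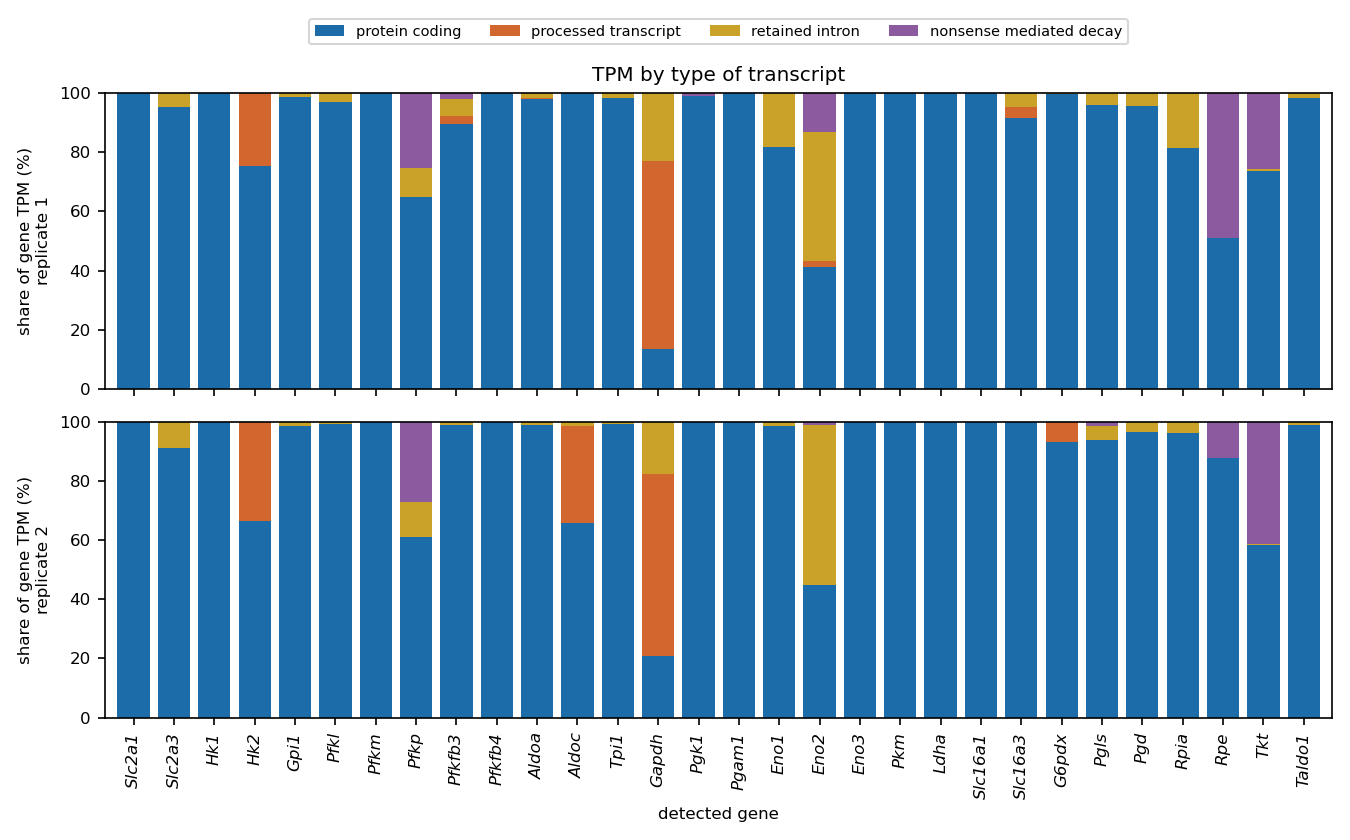
Share of each detected gene's TPM on transcripts annotated as protein coding, processed transcript, retained intron or nonsense-mediated decay, replicate 1 above and replicate 2 below. Gapdh shows the lowest coding share, at 13.5% and 20.9%, and Rpe shows a different split in each library.

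Other genes also had much of their TPM on transcripts of other types than protein coding. Tkt-205, a 465-base transcript marked for nonsense-mediated decay, held 25.7% and 41.4% of Tkt TPM. TPM divides counts by length, so a short transcript has a larger share of TPM than of counts. By expected counts, the Tkt transcripts marked for nonsense-mediated decay held 622 and 1322, beside 13373 and 13930 on coding transcripts. Over coding transcripts Tkt had 256 and 240.1 TPM, with replicate 1 higher, while over all transcripts replicate 2 was higher. In Rpe, Rpe-205, also marked for nonsense-mediated decay, held 47.2% in replicate 1 and 9.17% in replicate 2.
Rpe over coding transcripts was 24.3 and 30.9 TPM, again the other order from all transcripts. Hk2-202, a processed transcript of 594 bases, held 24.5% and 33.6% of Hk2 TPM. By expected counts, processed transcripts of Hk2 held 118 and 189, beside 3597 and 3682 on its coding transcripts. In Pfkp, Pfkp-203, marked for nonsense-mediated decay, held 25.2% and 27.2%, alike in both libraries. In Eno1, Eno1-206, a retained-intron transcript, held 247 TPM in replicate 1 and 2.59 TPM in replicate 2. Counting coding transcripts alone lowered the level by more than 1.5 times for Gapdh (320 TPM), Pfkp (119), Tkt (248), Rpe (27.6) and Eno2 (7.48), each a mean over both libraries.

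Glycolytic genes are known for processed pseudogenes, and several members share long stretches with them. Near copies, genes that share at least 20% of their own 41-base windows with a member, numbered 92, against 42 at a share of 50% and 108 with windows of 36 bases. Pgk1-rs7, on chromosome 12 from 10898986 to 10900240, is one whose 1255 bases in the M21 annotation equal positions 153 to 1407 of Pgk1-201 with 0 substitutions. The quantified M4 entry was longer, at 1731 bases, and its further bases were not compared. This entry held 250.1 and 306 TPM beside 285 and 254 TPM for Pgk1, from 6928 and 9412 expected counts. Replicate 1 thus gave Pgk1 the larger value and replicate 2 gave it to the pseudogene, and the levels overlapped. Pgk1 lies on chromosome X from 106187100 to 106203699 and the posterior SD of its count was 3.68% and 3.80%. With its near copies added, Pgk1 averaged 548 TPM, against 269 TPM without them. The reads on the shared stretch are uncertain for both genes.
Gm4735, the pseudogene shown above, had 86.3 and 0.79 TPM, at a posterior SD of 8.14% and 66.0% of its count. Another enolase copy, Eno1b, had 8.23 and 36.3 TPM. Added together, near copies were 6.10% of the Eno1 sum in replicate 1 and 2.64% in replicate 2. Gapdh had 76 near copies, 68 of them measured, with 135 and 65.6 TPM in all. Gm12033 had the highest mean of these, at 14.1 and 2.80 TPM, while in replicate 2 Gm10359 was higher at 4.82 TPM.
Pgam1-ps2, whose 765 bases all match Pgam1, had 13.4 and 3.55 TPM, and Gm1840 for Gpi1 had 4.79 and 1.60 TPM. Where the sequences match, reads of the gene and of its copy cannot be told apart. For Pkm, Aldoa and Tpi1 no measured near copy was found by this rule.

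**Figure D4:**
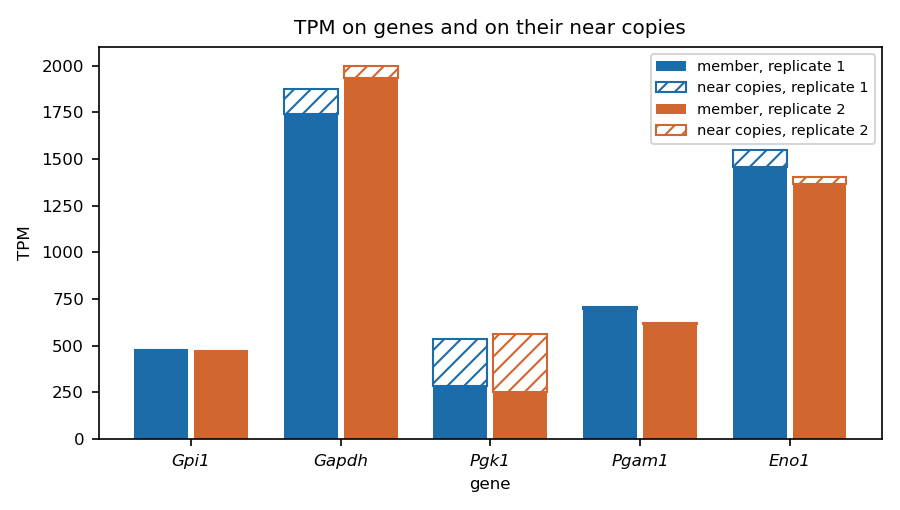
TPM of genes with near copies summing above 1 TPM over both libraries, filled for the gene and hatched for its near copies, by library. Pgk1 is the gene for which the copies reach about the gene's own level, 250.1 and 307 TPM.

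Between the libraries, counts were close for every tested gene. Expected counts were rounded and scaled to effective library sizes, and log2 ratios are replicate 1 over replicate 2. All 30 detected genes were tested among 15340 genes, and their log2 ratios lay between -0.14 and 0.19, with a median of 0.06 against 0.00 over all genes tested. Counting error alone, in a two-sided exact binomial test with Benjamini-Hochberg adjustment, called 12 of the 30, or 9 higher in replicate 1 and 3 lower. Over all genes 30.2% were called, with 15.7% higher in replicate 1 and 14.5% lower. The test compares 2 libraries, not conditions, so the calls show that counts of abundant genes differ by more than counting error.
The libraries were also tested with a negative binomial exact test, at a coefficient of variation of 19.8%. That variation was estimated from the same pair of libraries over all genes, and no log2 ratio of the 30 exceeded 0.19, so the test says nothing on the stability of single genes. With it, 0 of the 30 were called, 0 had an unadjusted p under 0.05, and 2.54% of all genes were called. Pkm, with 58086 counts in replicate 1 and 56957 in replicate 2, had the smallest binomial p, at a log2 ratio of 0.17 and an adjusted p of 4.67e-82 in the exact binomial test. Eno1, Gapdh and Ldha were the 3 lower in replicate 1, with log2 ratios of -0.10, -0.14 and -0.06.
Ratios of TPM spread further than ratios of counts. The TPM ratio lay within 0.25 on the log2 scale for 28 of 30 genes, and Rpe and Rpia were outside at 0.44 and 0.34, whereas their count ratios were -0.11 and 0.19. For 6 genes the ratios were on opposite sides of 0, namely Rpe, Eno1, Aldoc, Tkt, Hk2 and Taldo1. Rpe had an effective length of 1704 bases in replicate 1 and 2462 bases in replicate 2, and Aldoc had 1924 and 1489 bases. TPM divides counts by effective length, and both genes had the higher TPM in the library with the shorter effective length. Transcript shares also differed between the libraries for both genes. Rpe transcripts marked for nonsense-mediated decay held 49.1% of its TPM in replicate 1 and 12.2% in replicate 2. Aldoc-206, a processed transcript of 706 bases, held 0% and 32.6% of Aldoc TPM. Why the effective lengths differed between libraries was not tested.

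**Figure D5:**
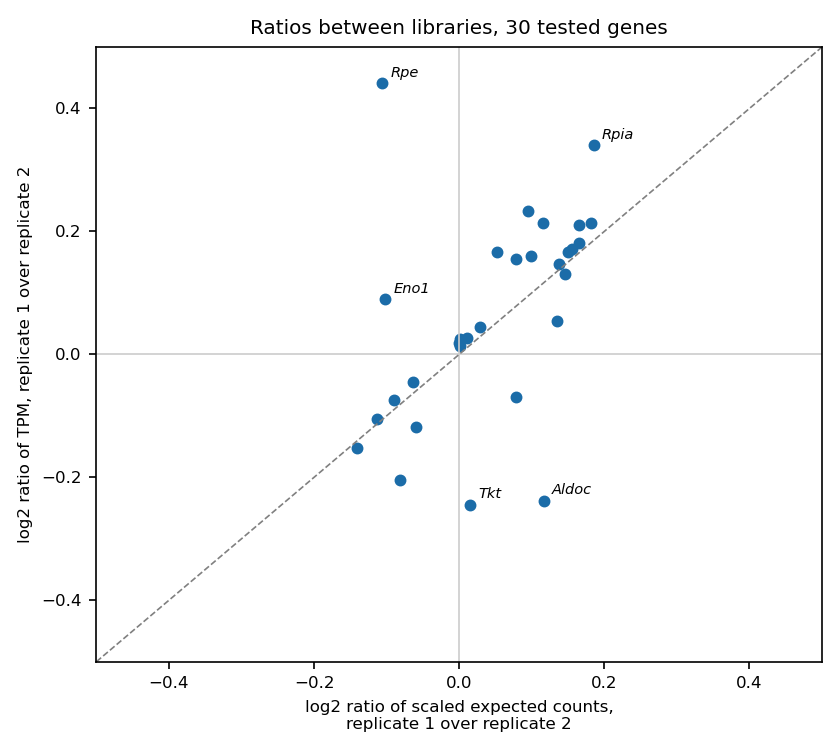
Log2 ratio of TPM against log2 ratio of scaled expected counts, replicate 1 over replicate 2, for the 30 tested genes; the dashed line marks equal ratios, and names are given to genes farther than 0.15 from it. Counts stay between -0.14 and 0.19, and Rpe and Rpia exceed 0.25 in TPM.

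Promoter windows of 300 bases, from 250 before to 50 after each RefSeq start, were found for 32 of the 33 genes. A gene was counted when any of its windows held the motif. Genes with several annotated starts, among them Pfkm, Aldoa and Eno1, thus had more chances of a match. The number of windows per gene was not matched between the members and the other genes. CACGTG was in 4 of 32 (12.5%), namely Ldha, Pfkfb3, Pfkm and Slc16a1, beside 12.1% of 8236 detected protein-coding genes and 8.09% of 27025 genes. ACGTG on either strand, which includes every CACGTG, was in 16 of 32 (50%), beside 30.1% and 21.8%. GCGTG was in 21 of 32 (65.6%), beside 57.2% and 35.2%. The 32 genes include Hk3, Pklr and Ldhb, which were not detected, whereas the 8236 genes were all detected. Hk3 is among those with ACGTG and Ldhb among those with GCGTG. In the printed windows Ldha holds 2 CACGTG and 1 further ACGTG, and Ldhb holds 1 GCGTG. Ldha has a further annotated start, whose 250 bases upstream hold 1 GCGTG and no CACGTG. A match is a description of letters and not a site of binding.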

How the data were processed

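Each library has 1 table per gene and 1 per transcript, on mm10 with the GENCODE M4 annotation, per the deposited notes. Which aligner and quantifier made them is not given in the sources used here. Expected counts, as deposited, are estimates of reads and can be fractions. The deposited TPM and FPKM are corrected for length and scaled to each library, and the deposited posterior mean counts and TPM are a second estimate with an SD and bounds, per the file headers. Isoform values, as deposited, give each transcript's percent of its gene. TPM is used throughout, since it is relative to all RNA of a library and corrected for length. Length minus effective length was 40 for all entries over 240 bases, which implies reads of 41 bases.

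Names, types and coordinates come from GENCODE M21, which matched 42462 of 43346 Ensembl entries; 26248 entries named by a number alone (0.0426% and 0.0539% of the counts in replicates 1 and 2) and 97 spike-ins at 0 were left out. Transcript types are also from M21, and the quantified M4 entry can differ from the M21 sequence. The members and lists were chosen with earlier results of these data known. All 33 members are named; of the other pathway genes, those at 1 TPM in both libraries, except for items not reported here; of near copies, the highest per member above 1 TPM; of transcripts, the leading one and every Pkm transcript over 1%. Further transcripts, Eno1b, Gm5514, Gm10359, Gm29739, Gm49759 and the pathway genes below 1 TPM were named after their values were seen.

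Rounded expected counts of 15340 genes with at least 10 counts over both libraries were compared by a two-sided exact binomial test at TMM effective sizes (edgeR 4.0.16, R 4.3.3) with Benjamini-Hochberg adjustment at 0.05; it holds counting error only, as do bounds of 3 counts. The script was tested on simulated data. Alternatives were posterior means, counts, coding transcripts, near copies added, library totals, DESeq2 1.42.0 size factors, no filter and a negative binomial exact test. The reads carry no molecular identifiers, so they may not be independent molecules. The labels do not say how the cultures were kept apart beyond separate biosamples.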

Additional observations from a re-analysis of the deposited data

How the results depend on the processing

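No paired analysis was possible because both libraries belong to 1 group. Protein-coding transcripts alone (except for the Pkm share, where planned), other isozymes added, near copies added to levels and 36-base windows were alternatives chosen after seeing the data. The M2 share of Pkm was 91.8% with posterior mean TPM; the other alternatives could not move it beyond 1 SD, since both transcripts are coding and equally long and only 2 libraries exist. In all, 29 or 30 genes were detected, with 29 at 5 TPM. Among detected genes, levels moved by more than 1.5 times for Gapdh, Pfkp, Tkt, Rpe and Eno2 over coding transcripts and for Pgk1 with near copies added. Shares of leading isozymes moved by more than 1 SD as follows. With counts in place of TPM they were Slc2a1 50.1%, Pfkp 54.8%, Pfkfb3 82.4%, Aldoa 98.2%, Eno1 97.7%, Pkm 99.9965% and Slc16a1 94.8%. With posterior mean TPM they were Hk2 67.4%, Pfkfb3 79.5%, Eno1 97.1%, Pkm 99.95%, Ldha 99.97% and Slc16a1 89.3%. With coding transcripts alone they were Slc2a1 59.9%, Hk2 62.2%, Pfkp 54.6%, Aldoa 98.7% and Eno1 97.8%. With other isozymes added they were Slc2a1 43.2%, Pfkfb3 40.7% and Eno1 97.3%, and with near copies added Eno1 97.5%. The negative binomial exact test called 0 members, against 12 by the exact binomial test. Near copies numbered 42 at a 50% share and 92 at 20%. The causes were not tested. With 2 libraries, an SD is itself imprecise, and Hk3, Pklr and Ldhb rest on at most 4 counts per library.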
